A study of Homo sapiens with 12 samples.

Results

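Interferon-stimulated genes are the genes that cells switch on after sensing an interferon. The set described here holds 45 of them, chosen by gene symbol, and all 45 were found among the 57500 gene rows of the count table. RNA was sequenced from 3 established human cancer lines in 12 libraries, which form 4 groups with 3 biological replicates in each. SW480 comes from a primary colorectal cancer and SW620 from a metastatic site of the same patient, and both grew untreated in DMEM. PEO4 is an ovarian cancer line that grew in RPMI 1640, either in control medium or with recombinant human TGF-β at 10 ng/mL for 6 days. All media held 10% FBS and 1% penicillin/streptomycin, and no group received interferon. The study compared SW620 with SW480 and PEO4 with TGF-β with its control. Each line is a single model, so a difference between SW620 and SW480 cannot be told apart from one between any 2 lines.

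Type I and type III interferons bind their receptors and activate the kinases JAK1 and TYK2, which lead to a complex of STAT proteins with IRF9. That complex binds the interferon-stimulated response element (ISRE) in the promoters of its target genes. Type II interferon acts mainly through a STAT dimer on a different element, the gamma-activated sequence (GAS). The target genes encode sensors of viral RNA, enzymes that stop translation or degrade RNA, membrane proteins that block virus entry or release, GTPases, and the ubiquitin-like modifier ISG15 with its enzymes. Many of them are also transcribed at a low level without added interferon, and epithelial cancer lines differ in that level. TGF-β is a cytokine that signals through SMAD proteins and drives many epithelial lines towards a mesenchymal state.

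Promoter sequences of 35 of the 45 genes could be matched in the RefSeq table (GRCh38.p14), taken as the 250 bases upstream of each gene's start. An ISRE core, taken as GAAA, any 2 bases and GAAA on either strand, stood in 18 of the 35 (51.4%), against 3.02% of 35116 promoters of the same length. A GAS core, TTCNNNGAA, stood in 9 of the 35 (25.7%), against 6.57% of all promoters, and it can overlap the ISRE core. A match describes the letters and shows no binding. The stretches of 100 bases below belong to genes that the results turn on, and the capitals mark each ISRE core. IFI6 and BST2 fell in PEO4 with TGF-β. BST2, HERC5, IFITM1 and IFI27 were lower in SW620 than in SW480, and IFIT1 and IFIT5 were higher.
IFI6, chr1:27672259-27672358, minus strand: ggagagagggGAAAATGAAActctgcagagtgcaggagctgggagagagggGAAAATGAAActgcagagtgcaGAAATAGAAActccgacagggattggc
BST2, chr19:17405671-17405770, minus strand: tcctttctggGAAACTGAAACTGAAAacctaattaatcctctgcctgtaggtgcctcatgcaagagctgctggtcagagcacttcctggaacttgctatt
HERC5, chr4:88456984-88457083, plus strand: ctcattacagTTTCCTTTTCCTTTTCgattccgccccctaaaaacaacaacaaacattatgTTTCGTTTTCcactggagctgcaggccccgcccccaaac
IFITM1, chr11:313940-314039, plus strand: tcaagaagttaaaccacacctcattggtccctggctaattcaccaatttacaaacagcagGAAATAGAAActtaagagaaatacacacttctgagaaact
IFI27, chr14:94110618-94110717, plus strand: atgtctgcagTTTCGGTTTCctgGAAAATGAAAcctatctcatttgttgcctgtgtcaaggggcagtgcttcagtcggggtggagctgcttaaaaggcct
IFIT1, chr10:89392497-89392596, plus strand: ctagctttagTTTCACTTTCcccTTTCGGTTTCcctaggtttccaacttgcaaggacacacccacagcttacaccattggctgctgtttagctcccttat
IFIT5, chr10:89414468-89414567, plus strand: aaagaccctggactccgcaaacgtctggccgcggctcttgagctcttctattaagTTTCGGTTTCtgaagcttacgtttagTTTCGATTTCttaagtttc
IFI6 and HERC5 each hold 3 cores in the window, and in BST2 and HERC5 neighbouring cores overlap. Every printed gene holds a core, so genes with the element stood in both directions of the SW lines. Of the other genes called lower in SW620, STAT2, MX1, GBP3, UBE2L6, PARP9, CMPK2 and IFI35 held no core in the 250 bases. Only a single start site, the first listed, was searched for each gene, so a core at another start site would be missed. PARP14 held 1 and OAS2 was not matched. Of the other genes called higher, SAMD9 held 1 and USP18 was not matched.

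Library totals ran from 14531420 to 22028956 gene-assigned counts. Levels are in CPM, the field's unit of library-scaled counts. Where no read was counted, the count allows a level of up to 3 counts, which is 0.144 to 0.179 CPM on the scale of the levels across lines (counting error only). The summed level of 5 ovarian markers was 5040 to 8160 CPM in control PEO4 and at most 158 CPM in the SW lines, and it was 2590 to 4220 CPM in PEO4 with TGF-β. CDX2, the intestinal master regulator, had 292 to 494 counts in the SW libraries and at most 3 in PEO4. The summed level of 5 colorectal markers, CDX2 among them, was 158 to 185 CPM in SW480, 361 to 450 CPM in SW620 and 120 to 149 CPM in control PEO4. VIL1, CDH17 and KRT20 also averaged higher in both SW lines than in control PEO4, KRT20 with 0 to 24 counts in the SW libraries. EPCAM did not, at 112 CPM in SW480, 142 CPM in SW620 and 147 CPM in control PEO4. SW620 replicate 3 stood apart in its level of genes that PEO4 expresses. Over 25 genes that were high in PEO4 and nearly silent in the other 5 SW libraries, it held a median of 1.33% of the PEO4 level, against 0.0858% to 0.424% in the others over 4 genes each. Each library's own counts played no part in choosing its genes, so the sets differ. Those of the other libraries had to be nearly silent in SW620 replicate 3. The 1.33% is a median, and single genes can lie above or below it. SW620 replicates 2 and 3 also held counts of the leukocyte gene PTPRC, 50 and 108, against 4 in replicate 1, at most 1 in SW480 and 36 to 51 in PEO4. The summed level of 6 leukocyte markers was 2.77, 8.95 and 14.8 CPM in SW620 replicates 1 to 3 and 2.56 to 3.84 CPM in SW480. That of 4 fibroblast markers was 6.05, 9.77 and 10.9 CPM in SW620 and 0.65 to 1.22 CPM in SW480, and that of 3 endothelial markers 5.49, 10.5 and 4.86 against 2.51 to 3.33 CPM. LUM and PECAM1 passed the test as higher in SW620, at log2 fold changes of 4.71 and 4.07. Their part in the results was not tested, and values that SW620 replicate 3 moved most are given with and without it.

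Across the 12 libraries, untreated PEO4 expressed most of the set above the colorectal lines. The design sets no test between PEO4 and the SW lines, which grew in different media, so these levels are a description, scaled over all 12 libraries. Every control PEO4 library lay above all 6 SW libraries for 38 of the 45 genes (84.4%), and 23.4% of 23457 genes did so in the whole table. Only MX2 lay below in every library, where 20.5% of all genes did so. The libraries overlapped for OAS2, OAS3, EIF2AK2, IFITM2, BST2 and ISG20. With scaling by total counts, 37 of the 45 lay above. In bulk RNA, fewer expressing cells and less RNA per cell cannot be told apart.

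**Figure D1:**
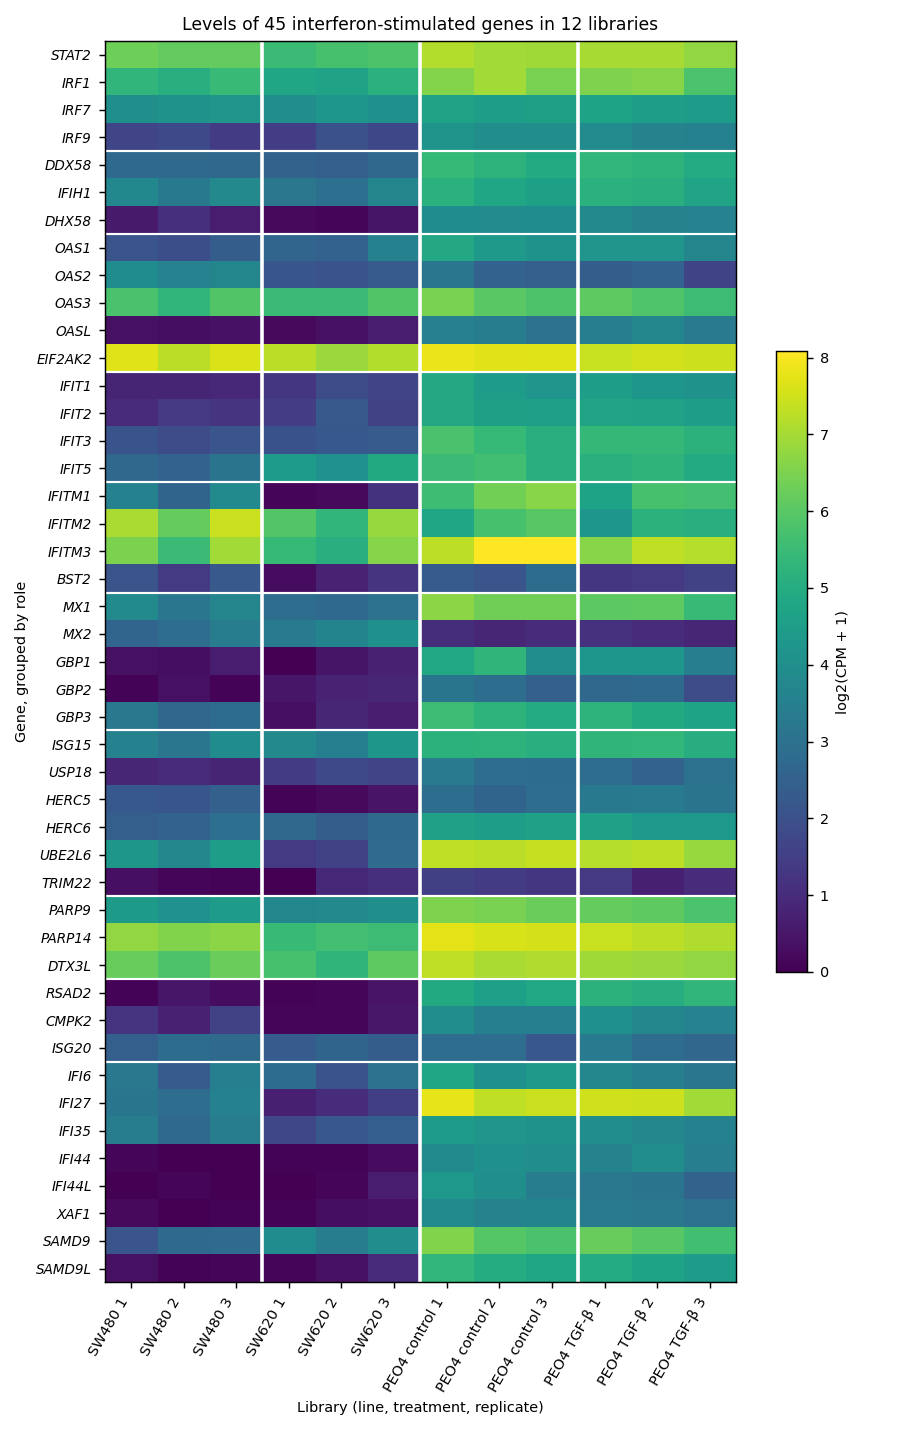
Levels of the 45 genes (rows, grouped by role) in the 12 libraries (columns), as log2 of CPM plus 1, from dark at 0 to yellow. The PEO4 columns are brighter than the SW columns for most rows, MX2 shows the opposite, and IFI44, IFI44L, XAF1 and SAMD9L are dark in all SW libraries.

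The widest gaps were in genes that were close to silent in both SW lines. IFI44, a cytoplasmic antiviral protein, stood at 13.2, 15.6 and 14.9 CPM in the control PEO4 libraries and had 0 to 4 counts in each SW library. RSAD2 (viperin), an enzyme that makes a chain-terminating nucleotide, stood at 29.1, 22.5 and 26.9 CPM in PEO4 and had 1 to 7 counts in each SW library, a ratio of group means of 137, or 162 without SW620 replicate 3. IFI44L, the neighbour of IFI44, stood at 18.7, 15.4 and 9.78 CPM in PEO4 and had 0 to 2 counts in 5 SW libraries and 11 in SW620 replicate 3. The highest SW counts of these 3 genes lay in SW620 replicate 3, with RSAD2 tied there with SW480 replicate 2. A share of 1.33% of the PEO4 level equals 87.6% of its 4 IFI44 counts, 117% of its 7 RSAD2 counts and 25.9% of its 11 IFI44L counts. For SAMD9L, a growth-restraining antiviral factor, the ratio was 106 and rose to 196 without SW620 replicate 3, where 1.33% of the PEO4 level equals 36.3% of its 21 counts. For GBP1, a GTPase that coats intracellular pathogens, it was 77.9, or 95.7 without that library. XAF1, a partner of the apoptosis inhibitor XIAP, stood at 13.4, 11.1 and 11.5 CPM in PEO4 and had 0 to 6 counts in each SW library. No ratio is given for IFI44, IFI44L and XAF1, whose mean level in the SW lines lay under that of 3 counts. Without SW620 replicate 3 the SW means of RSAD2 and SAMD9L were 0.161 and 0.166 CPM, at about the level of 3 counts. Their ratios of 162 and 196 are therefore uncertain, as is the 137 of RSAD2, whose SW mean was 0.191 CPM. For XAF1, 38.3% of exon bases overlap the opposite-strand gene PRAL, so its counts are uncertain where strand was not used in counting.

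IFI27, UBE2L6 and IFITM1 were also far higher in PEO4, with ratios of 38.4, 15 and 14.9. For EIF2AK2, IFITM2 and IFITM3 the gap was smaller or reversed. EIF2AK2 (PKR), the kinase that halts translation on double-stranded RNA, stood at 229, 212 and 204 CPM in control PEO4, 206, 151 and 196 CPM in SW480 and 149, 116 and 142 CPM in SW620. IFITM2 went the other way, with 26.7, 52.2 and 61.8 CPM in control PEO4 and 39.1 to 174 CPM in the SW libraries. IFITM3, which with IFITM2 blocks the fusion of virus with endosomes, stood at 153, 268 and 270 CPM in control PEO4 and at 33.0 to 125 CPM in the SW libraries. The IFITM genes share sequence (34.1% of the 50-base words of IFITM2 and 17.4% of those of IFITM3 occur in other genes), so the split of reads between them is uncertain. MX2, a GTPase that restricts viral entry to the nucleus, stood at 0.834 to 1.07 CPM in control PEO4 and 5.16 to 15.7 CPM in the SW lines, a ratio of 0.103. Its neighbour MX1, which acts in the cytoplasm, stood at 101, 80.2 and 79.7 CPM in control PEO4 and at 5.73 to 13.2 CPM in the SW lines, a ratio of 10.0.

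**Figure D2:**
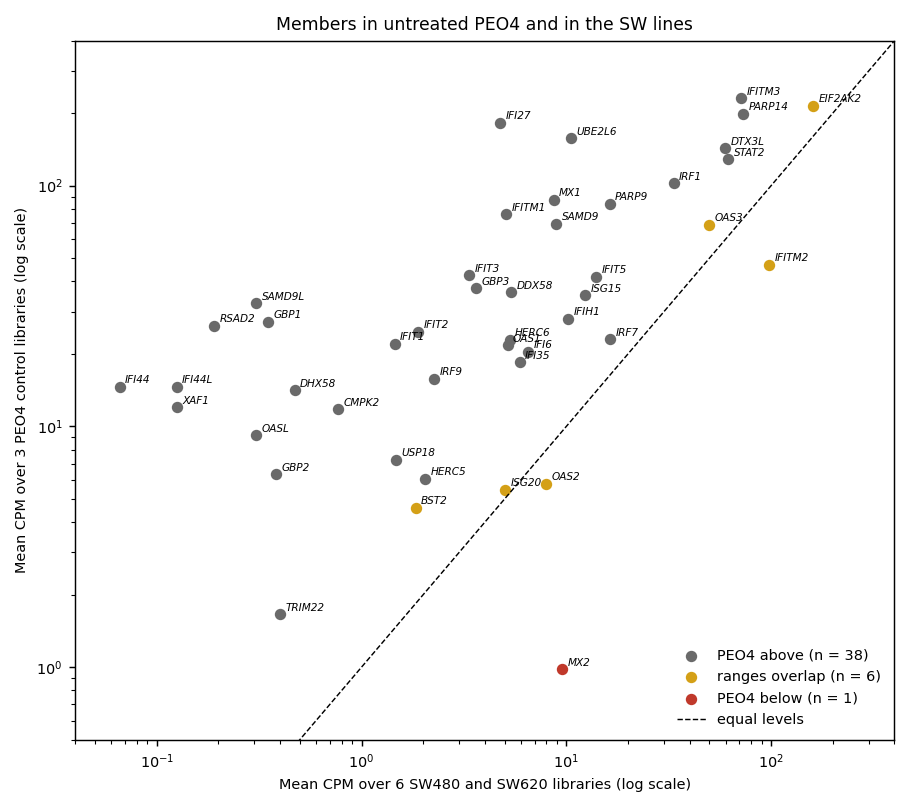
Mean level of each gene in 3 control PEO4 libraries (vertical, CPM, log scale) against its mean over 6 SW480 and SW620 libraries (horizontal, CPM, log scale), with the dashed line at equal levels. Grey points (38) are genes with every PEO4 library above every SW library, yellow points (6) are genes whose libraries overlap, and MX2 (red) lies below the line.

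Per kilobase of exon, the order of the genes differed between the lines. IFITM3 led in control PEO4 at 171 CPM per kilobase, followed by UBE2L6 at 71.5, IFITM1 at 70.4, IFI27 at 44.0 and ISG15 at 37.2. In SW480 the order was IFITM2 at 81.3 CPM per kilobase, IFITM3 at 63.6, EIF2AK2 at 17.1, STAT2 at 11.9 and ISG15 at 11.6. UBE2L6, the conjugating enzyme for ISG15, was thus second in PEO4 and the tenth in SW480, and IFI27, a mitochondrial and nuclear membrane protein, was at 2.01 CPM per kilobase there. In SW620, IFITM1 came to 0.467 CPM per kilobase and HERC5, the main ligase for ISG15, to 0.0385.

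The first designed comparison asked how the metastatic SW620 line differs from the primary SW480 line. Of the 45 genes, 35 had enough counts for the test and 17 of these passed it (48.6%), 13 lower and 4 higher in SW620, where 30.5% of 20941 genes passed in all. By direction, 17% of all genes passed as lower and 13.5% as higher in SW620. The lower group held membrane restriction factors, ISG15 enzymes, GBP3 and IFI27, and the higher group held IFIT5, IFIT1, SAMD9 and USP18. The median log2 fold change was -0.46 over the 35 genes and 0.03 over all genes tested. Replicate values did not overlap for 16 genes lower and 6 higher in SW620, against 23.4% and 20.8% of all genes. HERC5, IFITM1, GBP3, CMPK2 and BST2 were past the filter on low counts in all SW480 libraries but not in all SW620 libraries. HERC5 and CMPK2 were past it in 0 SW620 libraries, IFITM1 and GBP3 in 1 and BST2 in 2. They needed their SW480 counts to be tested, so the filter favoured a lower result for them. Of the other 30 tested genes 12 were called, beside the 30.5% of all genes (17% lower and 13.5% higher). IFIT5, IFIT1, SAMD9 and USP18 were the higher ones. STAT2, OAS2, MX1, UBE2L6, PARP9, PARP14, IFI27 and IFI35 were the lower ones, so the filter-favoured genes were all on the lower side. The 10 genes not tested were IFI44, IFI44L, XAF1, SAMD9L, GBP1, GBP2, RSAD2, TRIM22, OASL and DHX58, all with at most 23 counts in any SW library.

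**Figure D3:**
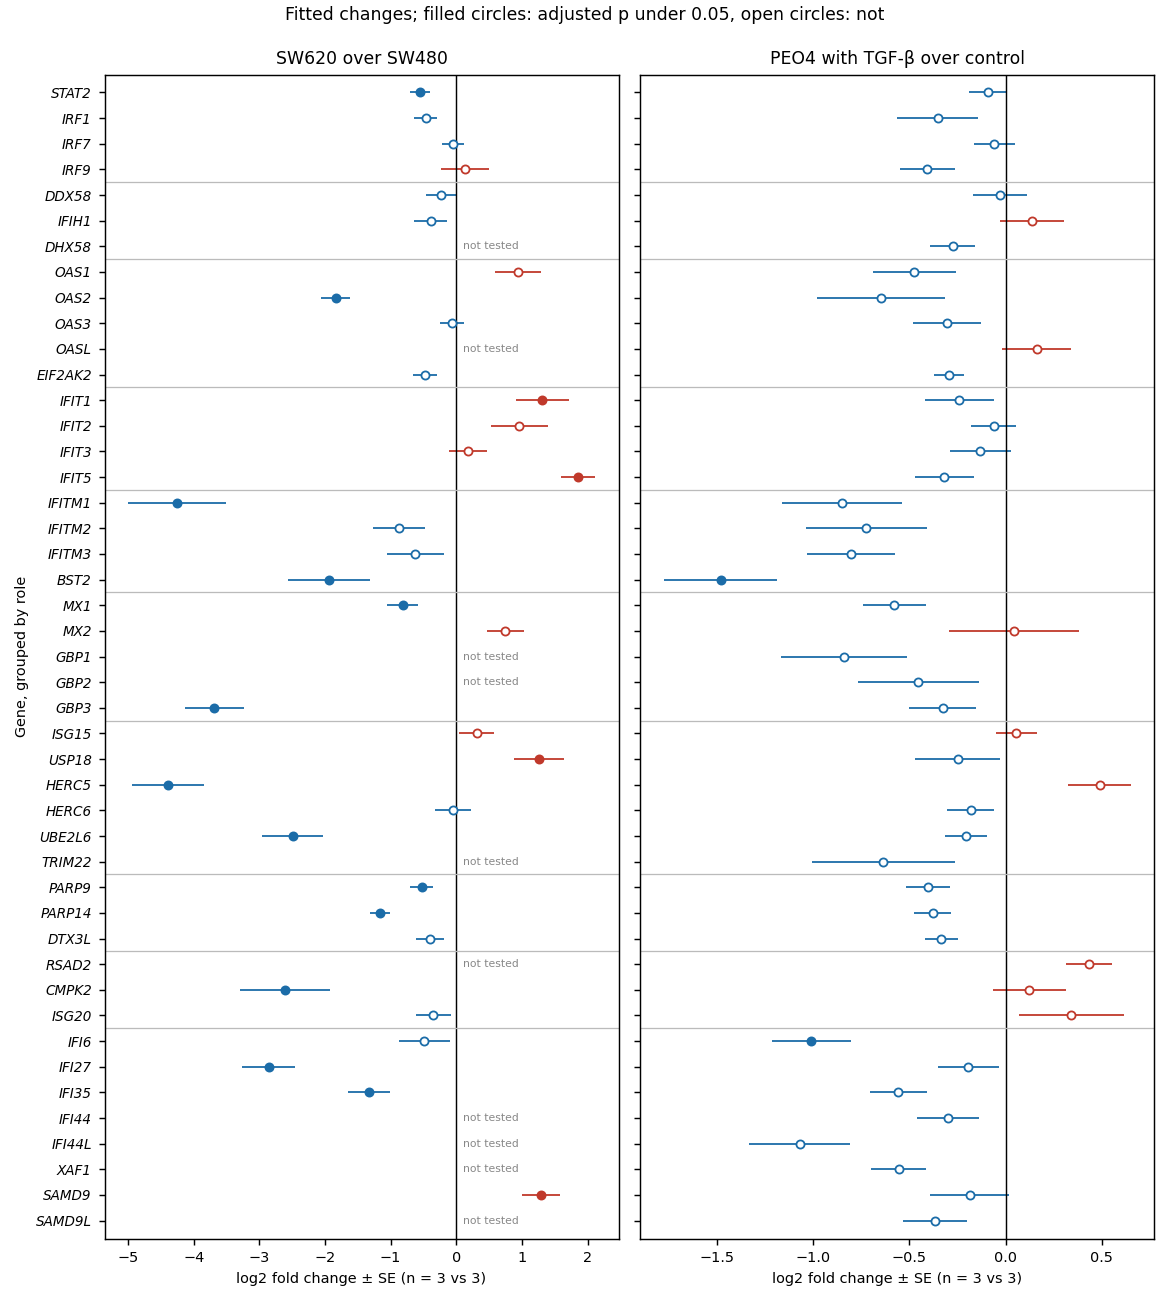
Fitted log2 fold change with its SE for each gene, grouped by role, in SW620 over SW480 (left) and in PEO4 with TGF-β over control (right), 3 against 3 libraries, with different horizontal scales. Filled circles passed the test: 17 on the left, from -4.40 for HERC5 to 1.85 for IFIT5, and 2 on the right, BST2 and IFI6, both lower.

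Among the transcription factors, only STAT2 passed the test. STAT2, the subunit that gives the type I interferon complex its activation domain, stood at 87.3, 80.3 and 77.3 CPM in SW480 and at 49.7, 57.9 and 60 CPM in SW620. The groups did not overlap, the log2 fold change was -0.55 ± 0.15 (SE) and edgeR's adjusted p was 0.0232. It lost the call in 3 of the 6 fits that each left out 1 library, with an adjusted p of up to 0.163. IRF1, a factor induced mainly by type II interferon, stood at 43.3, 38.4 and 47.2 CPM in SW480 and at 29.2, 27.0 and 37.1 CPM in SW620, without overlap but with an edgeR adjusted p of 0.0746. IRF1 passed in 1 of those 6 fits, without SW620 replicate 3, at -0.62 with an edgeR adjusted p of 0.0214. IRF9, the DNA-binding subunit of the complex, stood at 2.5, 2.84 and 1.87 CPM in SW480 and at 1.96, 3.40 and 2.53 CPM in SW620. IRF7, which amplifies type I interferon production, stood at 17.3, 18.7 and 19.4 against 16.5, 20.2 and 16.9 CPM. The groups of both overlapped, with log2 fold changes of 0.13 ± 0.36 and -0.04 ± 0.17. The counts of IRF9 are uncertain, since 43.6% of its 50-base words also occur in other genes, among them the read-through gene AL136295.5. Of the RNA sensors, DDX58 (RIG-I) and IFIH1 (MDA5) had log2 fold changes of -0.23 ± 0.23 and -0.39 ± 0.26 and did not pass.

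The oligoadenylate synthetases, which make the messenger 2-5A on sensing double-stranded RNA, did not move together. OAS2 stood at 15.8, 12.5 and 13.3 CPM in SW480 and at 3.81, 3.58 and 4.23 CPM in SW620, a log2 fold change of -1.84 ± 0.22 with an edgeR adjusted p of 0.000275. Its neighbours on chromosome 12 differed from it in direction or size. OAS3 had a log2 fold change of -0.06 ± 0.18. OAS1 stood at 3.77, 3.29 and 4.59 CPM in SW480 and at 5.71, 5.34 and 11.4 CPM in SW620, higher in every library, with an edgeR adjusted p of 0.0713 and a DESeq2 adjusted p of 0.0435. Without SW620 replicate 3 its log2 fold change was 0.49 in place of 0.95. EIF2AK2 stood at 230.0, 173 and 215 CPM in SW480 and at 166, 129 and 152 CPM in SW620, without overlap but with an edgeR adjusted p of 0.0845. Whether OAS1 and OAS2 differ in their response was not tested.

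The IFIT genes on chromosome 10, which bind foreign RNA ends and block its translation, all had log2 fold changes above 0. IFIT5 stood at 6.10, 5.48 and 8.38 CPM in SW480 and at 22.9, 18.0 and 31.4 CPM in SW620. It had the largest increase among the 35 tested members, a log2 fold change of 1.85 ± 0.26 with an edgeR adjusted p of 0.000765, and it kept its call in all 6 fits without 1 library. IFIT1 stood at 0.888, 0.903 and 0.963 CPM in SW480 and at 1.58, 2.92 and 2.37 CPM in SW620, a log2 fold change of 1.31 ± 0.41 with an edgeR adjusted p of 0.0378. IFIT1 kept the call in 1 of those 6 fits, with an adjusted p of up to 0.127, and without SW620 replicate 3 it was 1.26 with an adjusted p of 0.0552. IFIT2 and IFIT3 had log2 fold changes of 0.96 ± 0.43 and 0.18 ± 0.29 and did not pass. Some words of IFIT2 (7.5%) occur in other genes.

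Of the IFITM genes and BST2, IFITM1 and BST2 passed as lower in SW620, 2 of 4. IFITM1, which blocks virus entry at the cell surface, stood at 12, 5.87 and 14.4 CPM in SW480 and at 0.109, 0.182 and 1.34 CPM in SW620, which are 2, 3 and 26 counts. The log2 fold change was -4.26 ± 0.75 with an edgeR adjusted p of 0.00238, and 1.33% of its PEO4 level equals 60.8% of the counts in SW620 replicate 3. Leaving that library out gave -6.18 with an edgeR adjusted p of 6.31e-05. BST2 (tetherin), which holds budding virus on the cell surface, stood at 3.77, 1.81 and 4.14 CPM in SW480 and at 0.218, 0.850 and 1.44 CPM in SW620. Its log2 fold change was -1.94 ± 0.62 with an edgeR adjusted p of 0.0425, and it was -2.63 without SW620 replicate 3. BST2 kept the call in 2 of the 6 fits without 1 library, with an adjusted p of up to 0.135. IFITM2 stood at 147, 81.9 and 191 CPM in SW480 and at 66.1, 43.5 and 120 CPM in SW620, and IFITM3 at 98.7, 50.8 and 137 against 45.9, 36.7 and 103 CPM. Both overlapped between the lines and did not pass, and in each line 1 library, replicate 2, was the lowest. Leaving out SW620 replicate 3 called both, at -1.37 (edgeR adjusted p 0.0136) and -1.22 (0.0262). Exons of IFITM1 overlap IFITM2 on the same strand, and 32.0% of its 50-base words occur in other genes, among them IFITM2 and IFITM3.

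**Figure D4:**
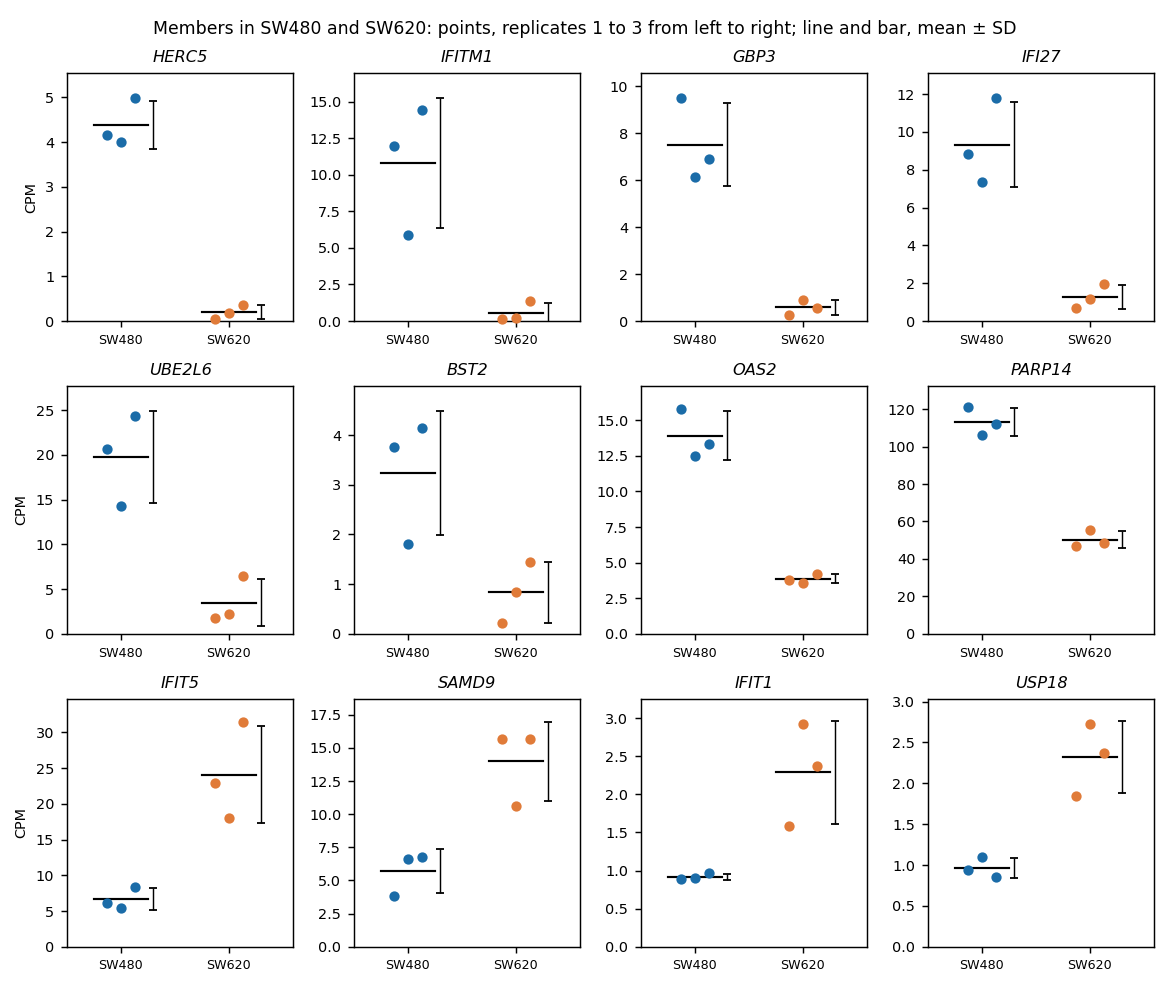
Levels (CPM, linear scale from 0) of 12 genes in the 3 SW480 (blue) and 3 SW620 (orange) libraries, replicates 1 to 3 from left to right, with the mean as a line and the SD as a bar (cut at 0). The groups do not overlap in any panel: the first 8 genes are lower in SW620 and IFIT5, SAMD9, IFIT1 and USP18 are higher.

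Among the GTPases, GBP3 showed the largest difference. It stood at 9.49, 6.13 and 6.91 CPM in SW480 and at 0.272, 0.911 and 0.567 CPM in SW620, a log2 fold change of -3.68 ± 0.45 with an edgeR adjusted p of 0.000301. Its 11 counts in SW620 replicate 3 compare with 1.33% of its PEO4 level, which equals 81.0% of them, and leaving that library out gave -3.69. GBP3 kept its call in all 6 fits that left out 1 library. MX1 stood at 14.8, 9.16 and 13 CPM in SW480 and at 7.07, 6.38 and 7.53 CPM in SW620, a log2 fold change of -0.81 ± 0.24 with an edgeR adjusted p of 0.0293, and it kept the call in 2 of the 6 fits. MX2, next to it on chromosome 21, had a log2 fold change of 0.75 ± 0.29 with an edgeR adjusted p of 0.0799 and overlapped between the lines. GBP2 had 1, 5 and 1 counts in SW480 and 8, 13 and 17 in SW620, and TRIM22 had 5, 2 and 1 against 0, 16 and 23. GBP2 was called with all 12 libraries in 1 model and without SW480 replicate 2, and TRIM22 without SW620 replicate 1. GBP5, a related gene that was not a member, had 0, 10 and 47 counts in SW620. The counts of TRIM22 and GBP5 lay in the SW620 libraries that also held PTPRC counts, and the part of that signal in them was not tested.

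The ISG15 system was split. ISG15 itself stood at 12, 9.16 and 15.6 CPM in SW480 and at 14.4, 11.5 and 19.7 CPM in SW620, with overlap and a log2 fold change of 0.31 ± 0.27. Its conjugating enzyme UBE2L6 stood at 20.7, 14.3 and 24.4 CPM in SW480 and at 1.74, 2.25 and 6.50 CPM in SW620, a log2 fold change of -2.49 ± 0.47 with an edgeR adjusted p of 0.00344. The ligase HERC5 stood at 4.16, 4 and 4.98 CPM in SW480 and had 1, 3 and 7 counts in SW620, the largest decrease of the set at -4.40 ± 0.55 with an edgeR adjusted p of 0.000368, although IFITM1 exceeded it without SW620 replicate 3. Both enzymes kept their calls in all 6 fits without 1 library. In SW620 replicate 3, 1.33% of the PEO4 level equals 30.8% of the UBE2L6 and 27.5% of the HERC5 counts, and leaving it out gave log2 fold changes of -3.33 and -5.18. USP18, the protease that removes ISG15 and restrains the type I receptor, went the other way, from 0.943, 1.10 and 0.850 CPM in SW480 to 1.85, 2.73 and 2.37 CPM in SW620. Its log2 fold change was 1.26 ± 0.39 with an edgeR adjusted p of 0.0351, but it kept the call in 0 of the 6 fits without 1 library, with an adjusted p of up to 0.140. USP18 shares 23.4% of its 50-base words with other genes, among them USP41. HERC6, the neighbour of HERC5 on chromosome 4, averaged 5.95 ± 1.26 CPM (SD, n = 3) in SW480, close to the 5.74 ± 0.93 CPM of SW620, and did not pass.

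Of the 3 ADP-ribosylation genes, PARP14 and PARP9 passed as lower in SW620. PARP14, a mono-ADP-ribosyltransferase, stood at 121, 106 and 112 CPM in SW480 and at 46.8, 55.5 and 48.6 CPM in SW620, a log2 fold change of -1.17 ± 0.15 with an edgeR adjusted p of 0.000471. PARP9 stood at 22.6, 18.6 and 22.7 against 13.4, 14.5 and 16.5 CPM, with a log2 fold change of -0.52 ± 0.17 and an edgeR adjusted p of 0.0482. It kept the call in 2 of the 6 fits without 1 library, with an adjusted p of up to 0.235. DTX3L, the ligase that pairs with PARP9, stood at 81.0, 63.6 and 81.3 against 58.1, 42.1 and 71.5 CPM, with overlap, and did not pass. CMPK2, a mitochondrial nucleotide kinase, had 27, 12 and 38 counts in SW480 and 2, 2 and 9 in SW620. Its log2 fold change was -2.61 ± 0.69 with an edgeR adjusted p of 0.0186, and it was -3.62 without SW620 replicate 3, where 1.33% of the PEO4 level equals 36.2% of the counts. CMPK2 kept its call in 3 of the 6 fits. The exonuclease ISG20 had a log2 fold change of -0.35 ± 0.26 and did not pass.

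Of the remaining effectors, IFI27 and IFI35 were lower and SAMD9 was higher. IFI27 stood at 8.82, 7.35 and 11.8 CPM in SW480 and at 0.707, 1.15 and 1.96 CPM in SW620, a log2 fold change of -2.86 ± 0.40 with an edgeR adjusted p of 0.00073. The share of 1.33% of the PEO4 level would give 45.2 IFI27 counts in SW620 replicate 3, more than the 38 found, and leaving that library out gave -3.34. IFI35, which binds the factor NMI, stood at 10.8, 6.71 and 10.8 against 2.56, 4.01 and 4.69 CPM, a log2 fold change of -1.33 ± 0.32 with an edgeR adjusted p of 0.0119. IFI35 kept the call in 3 of the 6 fits without 1 library. SAMD9, an antiviral and growth-restraining protein, stood at 3.83, 6.64 and 6.74 CPM in SW480 and at 15.7, 10.6 and 15.7 CPM in SW620, a log2 fold change of 1.29 ± 0.29 with an edgeR adjusted p of 0.00819. IFI6, an endoplasmic reticulum protein, stood at 8.43 ± 3.40 and 6.01 ± 2.13 CPM (SD, n = 3) and did not pass. HERC5, IFITM1, GBP3, IFI27, UBE2L6, OAS2, PARP14, SAMD9 and IFIT5 kept their calls in every fit without 1 library. Leaving out SW480 replicate 1 or 3 each lost BST2, CMPK2, IFI35, IFIT1, MX1, PARP9, STAT2 and USP18, and SW620 replicate 1 the same genes but IFIT1. Leaving out SW620 replicate 2 lost BST2, IFIT1, MX1, PARP9 and USP18 and gained OAS1, and SW480 replicate 2 or SW620 replicate 3 each lost IFIT1 and USP18. GBP2 was gained without SW480 replicate 2, TRIM22 without SW620 replicate 1, and IFITM2, IFITM3 and IRF1 without SW620 replicate 3.

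The second comparison asked what 6 days of TGF-β did in PEO4. All 45 genes had enough counts for the test, 2 of them passed it (4.44%), both lower with TGF-β, and 2.26% of 19064 genes passed in all (0.991% lower and 1.27% higher). BST2 and IFI6 were these genes, and none of the 45 passed as higher in this fit, where DESeq2 also called 0 higher. With edgeR, 18 of the 45 had an unadjusted p under 0.05, beside 3175 of all 19064 genes tested. The log2 fold change was below 0 for 37 of the 45 (82.2%), against 52.3% of all genes, and its median was -0.31, against -0.02 for all genes. Replicate values did not overlap for 12 genes lower and 2 genes higher with TGF-β, against 10.3% and 11.1% of all genes. DESeq2 called 11 genes, all lower, where it called 5.07% of all genes (2.17% lower and 2.9% higher), and the authors' deposited table also called 11 lower, with 5.11% of its genes called. The 9 genes added by DESeq2 were IFI44L, EIF2AK2, PARP9, DTX3L, PARP14, IFITM3, XAF1, IFI35 and MX1. The main fit did not take same-numbered libraries as pairs. With a replicate block, an alternative, edgeR called 22 of the 45 (48.9%), 21 lower and 1 higher. It then called 11% of all genes (4.68% lower and 6.35% higher), so the number of members called depends strongly on that choice.

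BST2 stood at 3.72, 3.10 and 5.70 CPM in the control libraries and at 1.29, 1.39 and 1.79 CPM with TGF-β. Every treated library lay below every control library, the log2 fold change was -1.48 ± 0.29 (SE) and edgeR's adjusted p was 0.0386. IFI6 stood at 23.3, 14.4 and 17.8 CPM in control and at 11.1, 9.19 and 7.34 CPM with TGF-β, again without overlap, a log2 fold change of -1.01 ± 0.20 with an edgeR adjusted p of 0.0413. Each call held in 1 of the 6 fits without 1 library, that without control replicate 1, and the adjusted p reached 0.159 for BST2 and 0.166 for IFI6. With all 12 libraries in 1 model neither passed. Both stayed lower than control in every alternative fit. WT1, EMX2 and MSLN, 3 of the 5 ovarian markers, also passed as lower with TGF-β. MUC16 did not pass, but its mean was 5713 CPM in control and 2391 CPM with TGF-β, without overlap (scaled over all 12 libraries). PAX8, the remaining marker, did not fall, with means of 558.5 CPM in control and 573.9 CPM with TGF-β on that scale, with overlap. The part of these marker changes in these results was not tested.

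**Figure D5:**
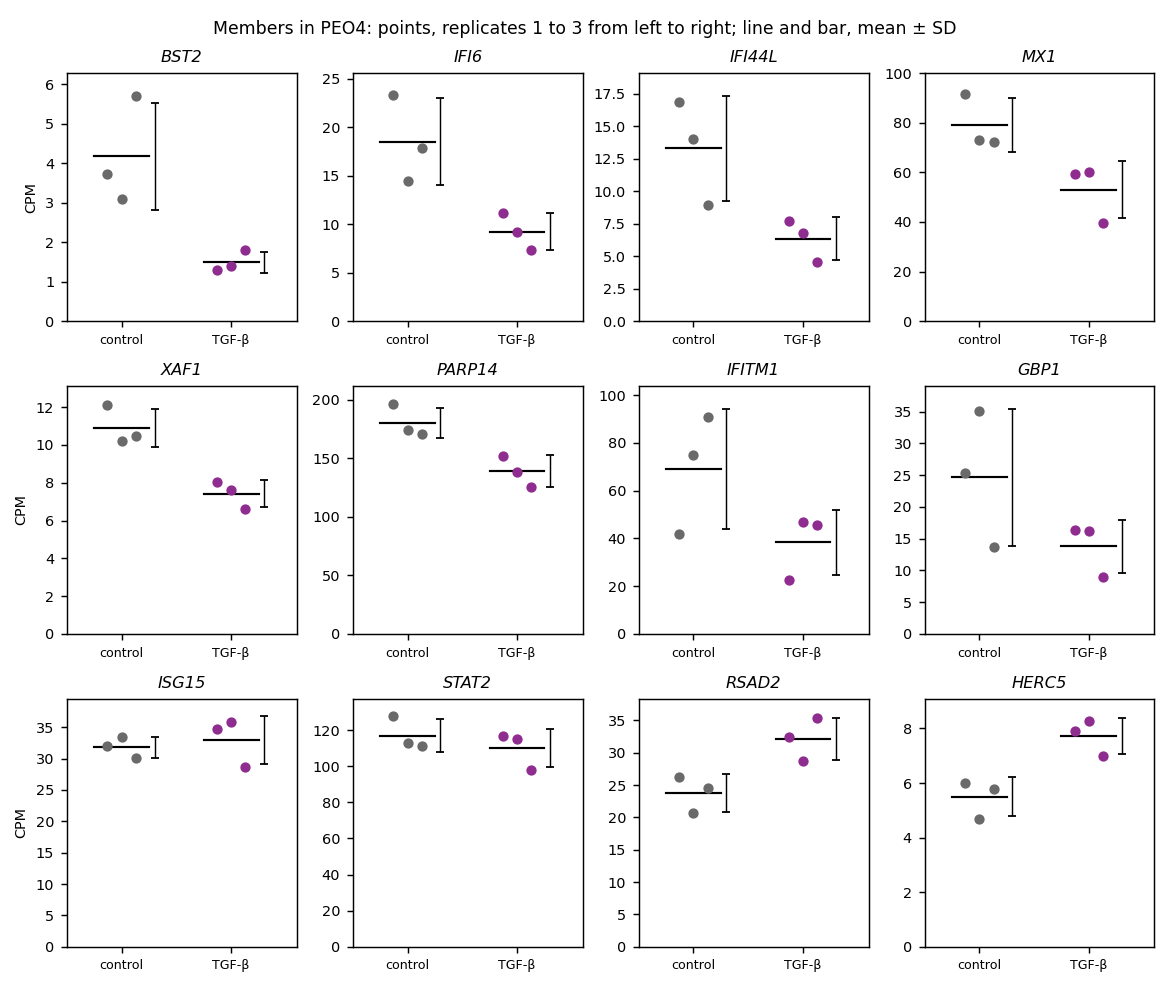
Levels (CPM, linear scale from 0) of 12 genes in the 3 control (grey) and 3 TGF-β (purple) PEO4 libraries, replicates 1 to 3 from left to right, with the mean as a line and the SD as a bar. BST2, IFI6, IFI44L, MX1, XAF1 and PARP14 do not overlap between the groups and are lower with TGF-β, IFITM1, GBP1, ISG15 and STAT2 overlap, and RSAD2 and HERC5 lie higher with TGF-β.

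The transcription factors did not pass. STAT2 stood at 128, 113 and 111 CPM in control and at 117, 115 and 97.8 CPM with TGF-β, a log2 fold change of -0.09 ± 0.10. IRF7 stood at 21.9, 20.0 and 20.9 against 22.2, 19.6 and 18.5 CPM, and IRF1 at 86.6, 114 and 78.5 against 82.3, 87.1 and 49.0 CPM. All 3 overlapped between the groups. IRF9 stood at 15.7, 13.8 and 13.5 CPM in control and at 12.7, 10.1 and 9.67 CPM with TGF-β, without overlap, a log2 fold change of -0.41 ± 0.14 with an edgeR adjusted p of 0.194. Of the RNA sensors, DHX58 (LGP2) was lower in every treated library at -0.27 ± 0.12, while DDX58 and IFIH1 had log2 fold changes of -0.03 ± 0.14 and 0.14 ± 0.17.

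IFITM3, EIF2AK2, PARP14, IFI27 and UBE2L6, which had the most CPM in control PEO4 (not scaled by gene length), had log2 fold changes below 0 and did not pass. IFITM3 stood at 138, 245 and 246 CPM in control and at 90.2, 141 and 129 CPM with TGF-β, a log2 fold change of -0.80 ± 0.23 with an edgeR adjusted p of 0.120. IFITM1 stood at 41.7, 74.9 and 91.0 against 22.7, 46.9 and 45.6 CPM, and IFITM2 at 24.1, 47.6 and 56.3 against 16.3, 31.8 and 29.3 CPM, with log2 fold changes of -0.85 ± 0.31 and -0.72 ± 0.31. In all 3 genes replicate 1 was the lowest library of both groups, and the fit without control replicate 1 called all 3. EIF2AK2 stood at 207, 193 and 186 CPM in control and at 154, 165 and 159 CPM with TGF-β, without overlap, a log2 fold change of -0.29 ± 0.08 with an edgeR adjusted p of 0.0956. PARP14 stood at 196, 174 and 171 against 152, 138 and 125 CPM, without overlap, a log2 fold change of -0.38 ± 0.10 with an edgeR adjusted p of 0.0835. IFI27 stood at 197, 144 and 156 against 164, 158 and 113 CPM, and UBE2L6 at 142, 138 and 148 against 129, 139 and 103 CPM. Both overlapped between the groups.

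Further members varied in how far the groups separated. IFI44L stood at 16.9, 14.0 and 8.90 CPM in control and at 7.70, 6.78 and 4.52 CPM with TGF-β, a log2 fold change of -1.07 ± 0.26 with an edgeR adjusted p of 0.0774 and a call in the fit without control replicate 3. Its neighbour IFI44 had a log2 fold change of -0.30 ± 0.16 with overlap. MX1 stood at 91.8, 73.2 and 72.5 against 59.3, 60.1 and 39.7 CPM, a log2 fold change of -0.58 ± 0.16 with an edgeR adjusted p of 0.114. XAF1, IFI35, PARP9 and DTX3L did not overlap between the groups either, with log2 fold changes of -0.55, -0.56, -0.40 and -0.33. GBP1 had a log2 fold change of -0.84 ± 0.33 with overlap, and its control libraries ranged from 13.7 to 35.1 CPM. The remaining GTPases GBP2, GBP3 and MX2, and the 4 IFIT genes, all overlapped between the groups, with log2 fold changes from -0.45 to 0.05.

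A few genes lay higher with TGF-β. RSAD2 stood at 26.3, 20.6 and 24.5 CPM in control and at 32.4, 28.7 and 35.3 CPM with TGF-β, without overlap, a log2 fold change of 0.43 ± 0.12 with an edgeR adjusted p of 0.113. Without the filter on low counts, edgeR called RSAD2 higher, with an adjusted p of 0.0137. HERC5 stood at 6.02, 4.68 and 5.79 against 7.90, 8.27 and 6.99 CPM, without overlap, a log2 fold change of 0.49 ± 0.16 with an edgeR adjusted p of 0.181. The log2 fold changes of ISG20, OASL, IFIH1, CMPK2, ISG15 and MX2 were also above 0, between 0.05 and 0.34, with overlap. RSAD2, CMPK2 and ISG20, the nucleotide and nuclease enzymes, were the only role group with every member above 0. The IFIT, IFITM, ADP-ribosylation and transcription factor groups and the other effectors had every member below 0.

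The median member, set against its mean over the libraries of its comparison, placed each library on a log2 scale. It was 0.35, -0.00318 and 0.34 in SW480 replicates 1 to 3 and -0.27, -0.43 and 0.03 in SW620, and the groups overlapped. In PEO4 it was 0.29, 0.12 and -0.00227 in control and 0.03, -0.06 and -0.30 with TGF-β, and the groups overlapped there too. The median of all genes stayed within 0.07 of 0 in each library.

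The rest of the pathway was read from 4 further lists of 101 genes. Of 22 interferon genes none had enough counts for a test. IFNB1 and IFNG had 0 counts in all 12 libraries, IFNE had 3 to 17 counts in each SW library and 0 in PEO4, and IFNL1 had 2 to 10 counts in each PEO4 library and at most 2 in the SW lines. Of 15 genes for receptors and JAK-STAT signalling, 4 were lower and none higher in SW620 (26.7%, beside the 30.5% of all genes), namely SOCS3 at -2.25 ± 0.35, SOCS1 at -1.42 ± 0.42, the type III receptor subunit IFNLR1 at -1.08 ± 0.24 and JAK2 at -0.75 ± 0.23. SOCS1 and SOCS3 are feedback inhibitors of the JAK kinases. IFNAR1, IFNAR2, IFNGR1, IFNGR2 and IL10RB, the other receptor chains, had log2 fold changes from -0.39 to 0.48 and did not pass. In PEO4 none of the 15 passed, and 3 had an unadjusted p under 0.05 with edgeR, beside 3175 of all 19064 genes. DESeq2 called 0 of the 15 and gave the 6 receptor chains adjusted p-values from 0.765 to 0.980.

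Of 17 genes for sensing and induction, 14 were tested in the SW lines, with 3 lower (IRF3, IRF5 and TMEM173) and 1 higher (TICAM1) in SW620, a share near the 30.5% of all genes. TMEM173 (STING), the adaptor for cytosolic DNA sensing, was lower in SW620 at -1.22 ± 0.20 and was also lower in PEO4 with TGF-β. In PEO4 it stood at 47.7, 46.0 and 49.4 CPM in control and at 31.6, 34.2 and 33.9 CPM with TGF-β, a log2 fold change of -0.52 ± 0.08 with an edgeR adjusted p of 0.0154, and it kept the call in 2 of the 6 fits without 1 library. CGAS, the DNA sensor upstream of STING, had 523 to 778 counts in each PEO4 library and 1 to 11 in each SW library. Of 47 other interferon-induced genes, 37 were tested in the SW lines, with 11 lower and 6 higher in SW620 (45.9%). APOL1 was lower at -3.36 ± 0.41, LAMP3 at -2.88 ± 0.34, NMI at -2.43 ± 0.32 and EPSTI1 at -1.93 ± 0.33. NT5C3A was higher at 1.77 ± 0.19, DDX60L at 1.64 ± 0.28 and LGALS3BP at 1.40 ± 0.33.

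In PEO4, 43 of these 47 genes were tested, 2 were lower with TGF-β and none higher (edgeR). Of the 43, 8 had an unadjusted p under 0.05 with edgeR, beside 3175 of all 19064 genes. LY6E, a membrane-anchored protein that alters virus entry, stood at 626, 655 and 749 CPM in control and at 320, 396 and 371 CPM with TGF-β. Its log2 fold change was -0.90 ± 0.11 with an edgeR adjusted p of 0.00492, and it kept the call in all 6 fits without 1 library. It was also lower in SW620 than in SW480 at -1.32 ± 0.31 with an edgeR adjusted p of 0.0108. TRIM14, a mitochondrial adaptor, was lower with TGF-β at -0.48 ± 0.10 with an edgeR adjusted p of 0.0444 and kept the call in 1 of the 6 fits. With edgeR, BST2, TMEM173 and LY6E were called lower in both comparisons, and the share of all genes lower in both is not given here. BST2 kept its calls in 2 (SW lines) and 1 (PEO4) of the 6 fits without 1 library. With DESeq2, PARP9, PARP14, IFI35 and MX1 were also called lower in both.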

How the data were processed

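The data are total RNA sequencing after depletion of ribosomal RNA, per the labels' protocols. The authors deposited whole-number counts for 57500 gene IDs in 12 libraries. Their tables of comparisons hold, per the file headers, a scaled signal for each library (each count over a constant of that library), a log2 fold change, and a p-value with its adjusted form. The submitters' processing notes name Trimmomatic 0.36, STAR 2.5.2b, featureCounts, Subread 1.5.2, DESeq2 and GRCh38; the annotation and the strand setting are not given in the sources used here. Positions, exon lengths, overlaps and shared 50-base words came from GENCODE 29 (GRCh38), in which 56898 IDs were found.

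For each comparison its 6 libraries entered a fit by edgeR 4.0.16 under R 4.3.3 (filterByExpr, TMM, glmQLFit and glmQLFTest, two-sided, Benjamini-Hochberg over all genes tested, threshold 0.05). Levels in the comparisons are TMM-scaled over 6 libraries and levels across lines over 12. edgeR's common coefficient of variation between replicates came to 0.274 (SW lines) and 0.152 (PEO4). The labels call the replicates biological; where cultures were not separate, p-values measure only the spread between these libraries. An exact two-sided permutation test of 3 against 3 cannot give a p under 0.1. The script was tested on simulated counts with known changes.

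The members and all lists were chosen with earlier results of these data known. The text gives values in every library for members past the threshold (up to 15 per direction), the 5 most abundant members per group and the 4 transcription factors. From the other lists it gives up to 10 called genes per comparison and the receptors; GBP5, CGAS, JAK2, TICAM1, IRF3, IRF5, and TMEM173 and LY6E in the SW lines, were named after their values were seen. Single values of some listed genes are not reported here. IRF1, whose exons overlap opposite-strand genes by 22.0%, and GBP1, GBP2 and TRIM22, which share 9.62%, 10.2% and 12.1% of their words with other genes, have uncertain counts. Alternatives were DESeq2 1.42.0, RLE and total-count scaling, other filters, a joint model of all 12 libraries, a replicate block and leaving out each library. A correction for GC content (loess span 0.3), alone and with the block, total-count scaling of the levels and level ratios without SW620 replicate 3 were added after seeing the data. Floors cover counting error only, while the SE comes from edgeR's fit and includes the spread between replicates.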

Additional observations from a re-analysis of the deposited data

How the results depend on the processing

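The medians over the set kept their sign in every alternative, from -0.61 to -0.31 in the SW lines and from -0.38 to -0.20 in PEO4 when 1 library was left out. The number of members called moved more, and the cause was not tested. In the SW lines (17 called) it was 15 without a count filter (18.1% of all genes), 23 with all 12 libraries in 1 model (35.9% of all genes), and 9 to 18 with 1 library left out (19% to 33.3% of all genes). In PEO4 (2 called) it was 11 with DESeq2 (5.07% of all genes), 4 with total-count scaling (2.62%), 12 without a filter (3.82%), 0 with all 12 libraries (0.703% of all genes) and 0 to 5 with 1 library left out (0.366% to 5.38%). The other pathway genes called numbered 15 to 28 in the SW lines with 1 library left out (main value 25). In PEO4 (3) they numbered 5 with DESeq2, 5 without a filter, 0 with all 12 libraries and 1 to 5 with 1 library left out.

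Same-numbered libraries correlated in their deviations at 0.0159, 0.67 and 0.567 in the SW lines and at 0.291, -0.14 and 0.481 in PEO4, so the numbers were not taken to pair the samples, and not every library correlated best with its own number. With a replicate block, 25 members were called in the SW lines and 22 in PEO4 (50.9% and 11% of all genes). Of these members, 18 and 21 were lower, beside 26.5% and 4.68% of all genes. The block called 43 and 12 other pathway genes. With the block and a GC correction, added after seeing the data, 27 and 20 members were called (53.1% and 10.6% of all genes). The other pathway genes called were then 44 and 13. RSAD2 was called higher in PEO4 with the block (adjusted p 0.00597, edgeR) and with the block and GC correction (0.00476).

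Signs changed in small differences only. In the SW lines IRF7 was 0.014 with total-count scaling, 0.12 with the GC correction and 0.12 with the block and GC correction, and -0.086 to 0.045 with 1 library left out. With 1 library left out HERC6 ran from -0.15 to 0.13, IRF9 from -0.043 to 0.34 and OAS3 from -0.21 to 0.046. In PEO4 DDX58 was 0.0016 with all 12 libraries, 0.046 with the GC correction and 0.047 with the block and GC correction. ISG15 was -0.017 and -0.018 in the latter fits. With 1 library left out DDX58 ran from -0.14 to 0.11, CMPK2 from -0.036 to 0.33, IFIT2 from -0.11 to 0.067, IFIT3 from -0.29 to 0.069, MX2 from -0.089 to 0.17 and SAMD9 from -0.33 to 0.093. The 10 members of the SW lines that missed the count filter were tested without it; GBP2 and DHX58 were called with all 12 libraries.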
